A study of Mus musculus with 384 samples.

Results

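The genes described here encode the ionotropic glutamate receptors of the AMPA and kainate kinds in fluorescent cells sorted from the mouse retina. They are the 4 AMPA receptor subunit genes Gria1 to Gria4, the 5 kainate receptor subunit genes Grik1 to Grik5, and Neto1, which encodes an auxiliary protein of kainate receptors. The 10 genes were chosen by name from the 32813 genes of the deposited tables, and all 10 passed the filter on low counts. The cells came from 4 retinas (1Ra, 1la, 2Ra and 2la) of 2 mice at postnatal day 17, 96 cells per retina. No treatment was given, and every cell came from mice with a Kcng4-cre allele, stop-YFP and the Thy1-stop-YFP Line#1 transgene, so that the sort took cells in which Cre from the Kcng4 locus had acted at any time and the Thy1-based reporter was on. Each sorted cell was made into its own library by Smart-seq2, which amplifies whole transcripts. The suffixes la and Ra are not spelled out in the labels.

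Cells were grouped by 3 genes that mark kinds of cell in this sort, each cell being assigned by whether it held Sox6, Vsx1 or Ddit4l at 20 TPM or more, TPM being a transcript level that is corrected for length and scaled to a fixed total per cell. Of 383 cells with values, 321 had at least 3000 genes detected, at an expected count of 1 or more. Among them 151 were Sox6-only cells, 60 Vsx1-only, 59 Ddit4l-only, 33 held none of the 3 markers, and 18 held more than 1 and were not compared. Sox6 and Vsx1 encode transcription factors and Ddit4l encodes a regulator of growth signalling. The levels just inside and just outside the threshold were 20.8 and 18.7 TPM for Sox6, 31 and 15.8 TPM for Vsx1, and 29 and 16.9 TPM for Ddit4l. The median total count was similar in the groups, at 1019429 in cells with no marker, 1067453 in Sox6-only, 1072603 in Vsx1-only and 1091485 in Ddit4l-only cells. Retina 1Ra was shallower, with medians of 740696 to 770962 in these 4 groups. The mouse is the replicate (n = 2), cells are not, and each retina filled its own wells, so that a retina and its wells cannot be told apart.

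Of 14 markers of bipolar cells, 14 were at 1 TPM or more in most Sox6-only cells, 13 in most Vsx1-only and 12 in most Ddit4l-only cells, where Pcp2 and Scgn had a median of 0. Of 10 ganglion cell markers at most 1 reached this level in most cells of any group, and of 8 amacrine markers 1 did. Of 8 Mueller glia markers 3 reached it in most Sox6-only and 2 in most Vsx1-only and Ddit4l-only cells, and of 5 horizontal cell markers 2 did in each group. The horizontal list had a median sum of 179 TPM in Sox6-only, 174 TPM in Vsx1-only and 405 TPM in Ddit4l-only cells, and its markers Onecut1, Onecut2 and Lhx1 had a median of 0 in all 3. Rod transcripts were present in all groups. Their summed level over 8 genes reached 1000 TPM in 43 Sox6-only cells (28.5%), 18 Vsx1-only cells (30%) and 10 Ddit4l-only cells (16.9%). The groups also differed in Grm6, the metabotropic receptor of ON bipolar cells, which was at 5 or more counts in 149 of 151 Sox6-only and 59 of 60 Vsx1-only cells, against 17 of 59 Ddit4l-only cells.

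Glutamate released by photoreceptors reaches bipolar cells through different receptors. ON bipolar cells use the metabotropic receptor that Grm6 encodes, whereas OFF bipolar cells use ionotropic AMPA and kainate receptors on their dendrites, channels that open when glutamate binds. AMPA receptors are tetramers of the proteins GRIA1 to GRIA4, and kainate receptors combine GRIK1 to GRIK3, which can form channels alone, with GRIK4 and GRIK5, which need one of the others. Neto1 and Grik1 are known as genes of OFF bipolar types, and both stand in the list of 9 OFF bipolar markers used here.

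A property that sets the subunits apart is the Q/R site, a glutamine codon in the pore loop. In Gria2, and partly in Grik1 and Grik2, the enzyme encoded by Adarb1 edits this codon in the transcript so that it is read as arginine, and AMPA receptors that hold edited GRIA2 pass little calcium. The coding stretches that end at this codon are shown because Gria2 is read beside the other AMPA genes in the cells below. The stretches are 45 bases from the GENCODE transcripts on GRCm38 (mm10), all within 1 exon, 5′ to 3′ in the direction of the transcript, with the Q/R codon in capitals.
Gria1: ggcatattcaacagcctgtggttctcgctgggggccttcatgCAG
Gria2: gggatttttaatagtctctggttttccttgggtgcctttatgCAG
Gria4: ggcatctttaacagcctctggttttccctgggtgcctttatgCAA
Grik1: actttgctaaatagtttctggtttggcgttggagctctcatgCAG
Grik2: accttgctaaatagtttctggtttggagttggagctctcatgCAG
They lie at chr11:57243052-57243096 on the plus strand in exon 11 of Gria1, chr3:80706911-80706955 on the minus strand in exon 11 of Gria2, chr9:4464137-4464181 on the minus strand in exon 12 of Gria4, chr16:87940542-87940586 on the minus strand in exon 12 of Grik1 and chr10:49244329-49244373 on the minus strand in exon 12 of Grik2. The genome gives glutamine in each, written CAA in Gria4 and CAG in the other 4. Grik1 and Grik2 shared 43 of 45 bases, Gria2 shared 39 with Gria4 and 34 with Gria1, and Gria2 shared 29 with Grik1. The deposited values are counts per gene, so they hold no measure of editing at this site.

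Gria2 had the highest mean of the 10 genes in each of the 3 marker groups on the length-corrected TPM scale. The order after it differed. In Sox6-only cells Gria2 had a mean of 68.1 TPM over cells, Gria1 59 TPM, Grik1 55.8 TPM and Gria4 7.3 TPM. In Vsx1-only cells the same order held, at 129, 60.1, 22 and 7.07 TPM for Gria2, Gria1, Grik1 and Gria4. In Ddit4l-only cells Gria4 stood above Grik1, with 81.5 TPM for Gria2, 25.1 for Gria1, 22.6 for Gria4 and 8.81 for Grik1. The other 6 genes had means of at most 5.69 TPM in these 3 groups. AMPA subunit genes made up 68.2% of the summed TPM of the 10 genes in Sox6-only cells, 84.8% in Vsx1-only and 90.8% in Ddit4l-only cells. These shares depend on few cells for the kainate part, since the median of every kainate gene except Grik2 and Grik4 was 0 in these groups and that of those 2 was under 1 TPM.

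**Figure D1:**
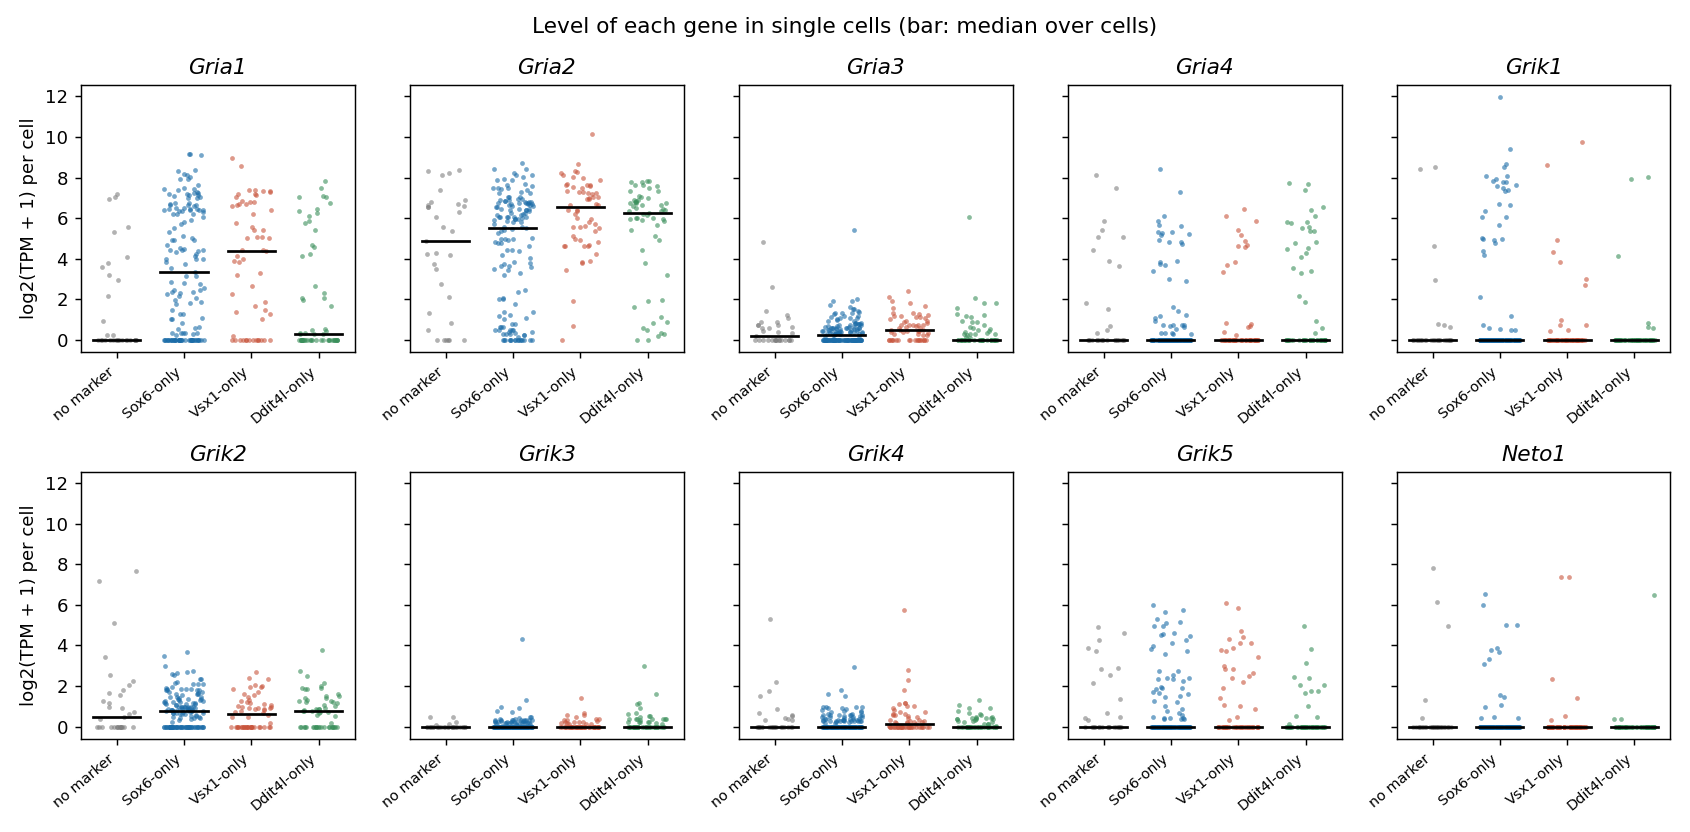
Each point is 1 cell, with the level of 1 gene as log2(TPM + 1) on the vertical axis and the 4 cell groups on the horizontal axis, and the bar is the median over cells. Gria2 is spread over most cells of all groups, Gria1 and Gria4 are split into cells with and without the transcript, and Grik1 and Neto1 are at 0 in most cells with a few at high levels.

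Gria2, whose protein sets the calcium permeability of AMPA receptors, was detected in most cells of each group. At least 1 count was found in 135 of 151 Sox6-only cells (89.4%, 95% Clopper-Pearson interval 83.4% to 93.8%), 59 of 60 Vsx1-only cells (98.3%, 91.1% to 100%) and 57 of 59 Ddit4l-only cells (96.6%, 88.3% to 99.6%). All intervals cover counting error only. Its mean level in Sox6-only cells was 49.2 TPM in retina 1Ra, 74.5 in 1la, 55.8 in 2Ra and 87 in 2la. In Vsx1-only cells it was 125, 104, 88.7 and 199 TPM in the same retinas, and in Ddit4l-only cells 75.3, 68.8, 67.1 and 101 TPM. The Vsx1-only values were above the Sox6-only values in every retina, though 88.7 TPM, the lowest of the former, was close to 87 TPM, the highest of the latter. The share of all genes with such an order is not given, here or for any order over the 4 retinas named below. One Vsx1-only cell of 2la, at 1121 TPM, held 13.7% of the Gria2 counts of its group, whose mean without it was 113 TPM. The Ddit4l-only values lay within the range of the Sox6-only values except for 101 TPM in 2la.

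As means of the mice, Gria2 was at 67.3 ± 6.81 TPM in Sox6-only, 132 ± 23.1 TPM in Vsx1-only and 81.3 ± 11.7 TPM in Ddit4l-only cells (SD, n = 2). Between Sox6-only and Vsx1-only cells the log2 fold change was -0.84 (SE 0.15) in edgeR's quasi-likelihood test on sums per mouse, with the mouse as a block and a Benjamini-Hochberg adjusted p of 0.325 (unadjusted 0.00326). It was -0.77 in mouse 1 and -0.91 in mouse 2. Between Vsx1-only and Ddit4l-only cells it was 0.62 (SE 0.14, edgeR adjusted p 0.258), with Vsx1-only cells higher in 4 of 4 retinas. Between Sox6-only and Ddit4l-only cells it was -0.22 (SE 0.14, edgeR adjusted p 0.778). None of the 3 differences passed the threshold of 0.05 in this test, and DESeq2 on the same sums called both differences from Vsx1-only cells. Gria2 also differed with the level of rod transcripts, and not in 1 direction. In Sox6-only cells its mean was 50.1 TPM in the 43 cells with 1000 TPM or more of rod genes and 75.2 TPM in the 108 cells below. In Vsx1-only cells these means were 55.6 TPM in 18 cells and 161 TPM in 42, and in Ddit4l-only cells 107 TPM in 10 cells and 76.2 TPM in 49. Without such cells in any group the edgeR log2 fold change of Sox6-only against Vsx1-only was -1.09 and that of Vsx1-only against Ddit4l-only 1.07.

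**Figure D2:**
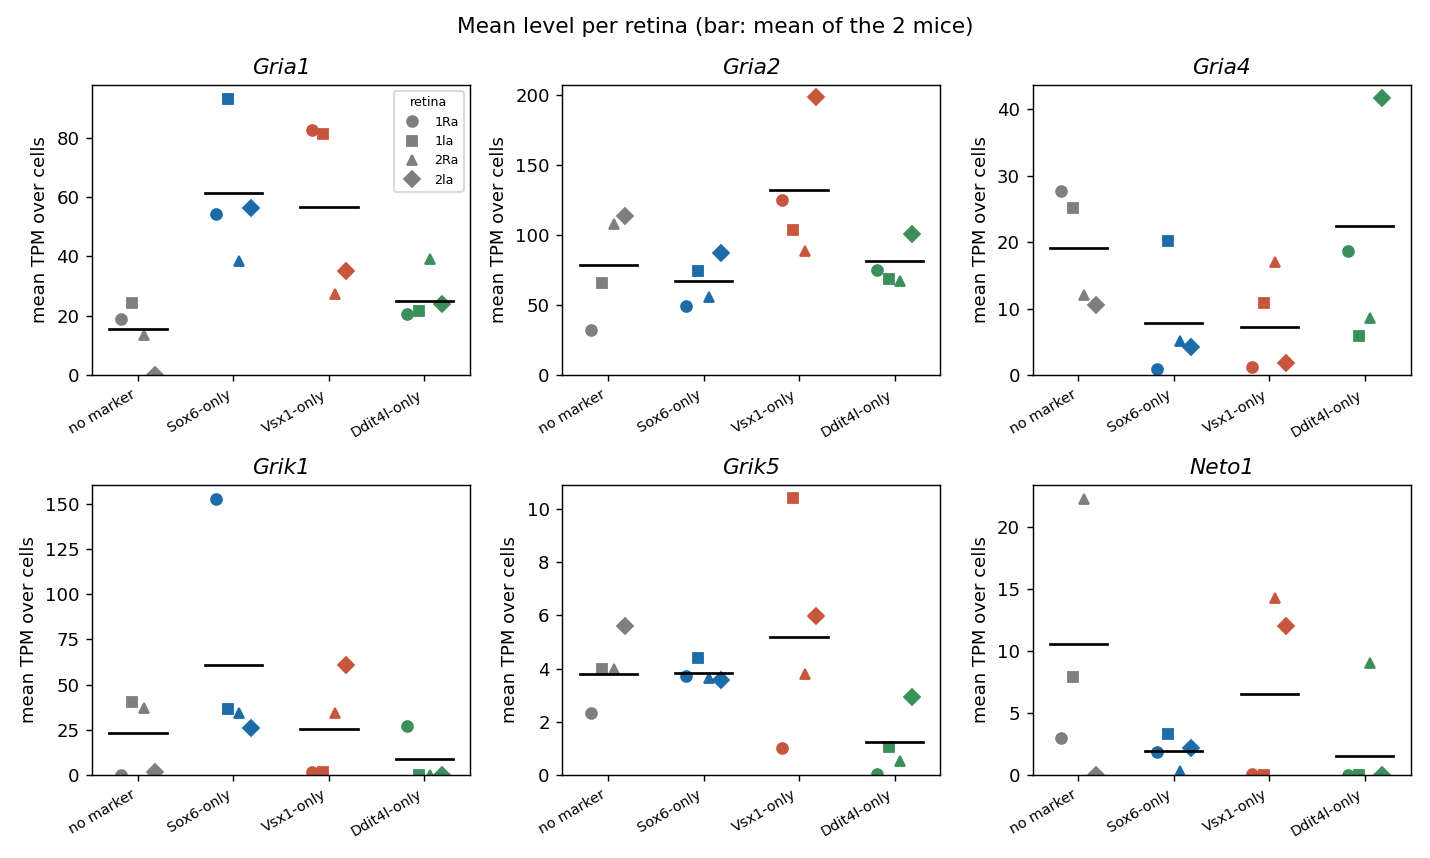
The vertical axis is the mean TPM over the cells of 1 group in 1 retina, each symbol is a retina, and the bar is the mean of the 2 mice. The Gria2 values of Sox6-only cells (49.2 to 87 TPM) lie below those of Vsx1-only cells (88.7 to 199 TPM), while Grik1 in Sox6-only cells is set by 1 retina at 153 TPM.

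Gria1 was split between cells with and without the transcript. It was detected in 111 of 151 Sox6-only cells (73.5%, interval 65.7% to 80.4%), 46 of 60 Vsx1-only cells (76.7%, 64% to 86.6%) and 31 of 59 Ddit4l-only cells (52.5%, 39.1% to 65.7%). With every cell thinned to 200000 counts, a depth that all 321 cells reached, these shares were 60.9%, 73.3% and 35.6%. The share in Ddit4l-only cells was close in the 2 mice, at 51.7% and 53.3%, as was that in Sox6-only cells at 73% and 73.9%. In Vsx1-only cells it was 91.2% in mouse 1 and 57.7% in mouse 2. The median level was 9.15 TPM in Sox6-only, 20 TPM in Vsx1-only and 0.21 TPM in Ddit4l-only cells.

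Over the retinas 1Ra, 1la, 2Ra and 2la, mean Gria1 was 54.4, 93.1, 38.5 and 56.2 TPM in Sox6-only cells, 82.7, 81.3, 27.2 and 35.2 TPM in Vsx1-only cells, and 20.7, 21.5, 39.2 and 23.9 TPM in Ddit4l-only cells. The Ddit4l-only values were the lowest in 3 of the 4 retinas and the highest in 2Ra, so the groups overlapped. The log2 fold change of Sox6-only against Ddit4l-only cells was 1.29 (SE 0.51, edgeR adjusted p 0.644), being 1.81 in mouse 1 and 0.89 in mouse 2. That of Vsx1-only against Ddit4l-only cells was 0.90 (SE 0.52, edgeR adjusted p 0.564), being 1.81 in mouse 1 and -0.04 in mouse 2. That of Sox6-only against Vsx1-only cells was 0.39 (SE 0.50, edgeR adjusted p 0.945).

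Gria4 was ordered the other way by its level. It was detected in 40 of 151 Sox6-only cells (26.5%, interval 19.6% to 34.3%), 18 of 60 Vsx1-only cells (30%, 18.8% to 43.2%) and 27 of 59 Ddit4l-only cells (45.8%, 32.7% to 59.2%). In thinned cells the shares were 17.9%, 21.7% and 42.4%, and the Ddit4l-only share was 41.4% in mouse 1 and 43.3% in mouse 2. Mean Gria4 over the retinas 1Ra, 1la, 2Ra and 2la was 0.903, 20.2, 5.12 and 4.19 TPM in Sox6-only cells, 1.18, 10.9, 17 and 1.83 TPM in Vsx1-only cells, and 18.6, 5.89, 8.62 and 41.6 TPM in Ddit4l-only cells. Ddit4l-only cells were far above the others in 1Ra and 2la. They were the lowest in 1la and below Vsx1-only cells in 2Ra, so the groups overlapped. The log2 fold change was -1.43 (SE 0.77, edgeR adjusted p 0.725) for Sox6-only against Ddit4l-only and -1.35 (SE 0.74, edgeR adjusted p 0.545) for Vsx1-only against Ddit4l-only cells. One Sox6-only cell of 1la held 340 TPM of Gria4, with all 14 bipolar markers and 1139 TPM of Grm6.

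Gria3, the AMPA subunit gene on the X chromosome, was near the floor. Its mean was 0.675 TPM in Sox6-only, 0.712 TPM in Vsx1-only and 1.51 TPM in Ddit4l-only cells, although at least 1 count was found in 48.3%, 65% and 39% of the cells. Thinning reduced these shares to 19.9%, 28.3% and 16.9%. A single Ddit4l-only cell of 2Ra held 66.6 TPM, and the next highest in these groups, a Sox6-only cell of 2Ra, held 41.3 TPM. Both had high sums over the amacrine marker list, with 1999 TPM (7 of 8 markers) in the Sox6-only cell and 1704 TPM (8 of 8) in the Ddit4l-only cell, against group medians of 11.4 and 13.1 TPM. The part of such RNA in the Gria3 values was not tested.

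The AMPA subunit genes were then read together within cells, at 5 or more counts, to see which combinations the cells held. Gria1 with Gria2 and without Gria4 was the most frequent combination in Sox6-only cells (69 of 151, 45.7%) and in Vsx1-only cells (30 of 60, 50%). In Ddit4l-only cells no combination led, with Gria2 alone in 16 of 59, Gria1 with Gria2 in 13, Gria2 with Gria4 in 13 and all 3 in 8. Gria2 with Gria4 and without Gria1 was thus found in 6.62% of Sox6-only and 1.67% of Vsx1-only cells, against 22% of Ddit4l-only cells. Cells with none of the 3 genes at this level numbered 18 of 151 Sox6-only (11.9%), 1 of 60 Vsx1-only and 6 of 59 Ddit4l-only cells.

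Gria1 at 5 or more counts with Gria2 under 5 was found in 15 of 151 Sox6-only cells (9.93%) and 1 of 60 Vsx1-only cells (1.67%). The same set was found in 0 of 59 Ddit4l-only cells. This allows a share of up to about 5.08%, taken as 3 divided by the number of cells and not as an exact interval. Gria2 itself was at 5 or more counts in 116 of the Sox6-only, 58 of the Vsx1-only and 50 of the Ddit4l-only cells. A cell counted as under 5 can still hold Gria2. Within a group the levels of Gria1 and Gria2 were only weakly related across cells, with a Pearson r of log2(TPM + 1) of 0.18 in 151 Sox6-only and 0.16 in 60 Vsx1-only cells. A count under 5, or of 0, in a single cell can come from transcripts that were lost in library making.

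**Figure D3:**
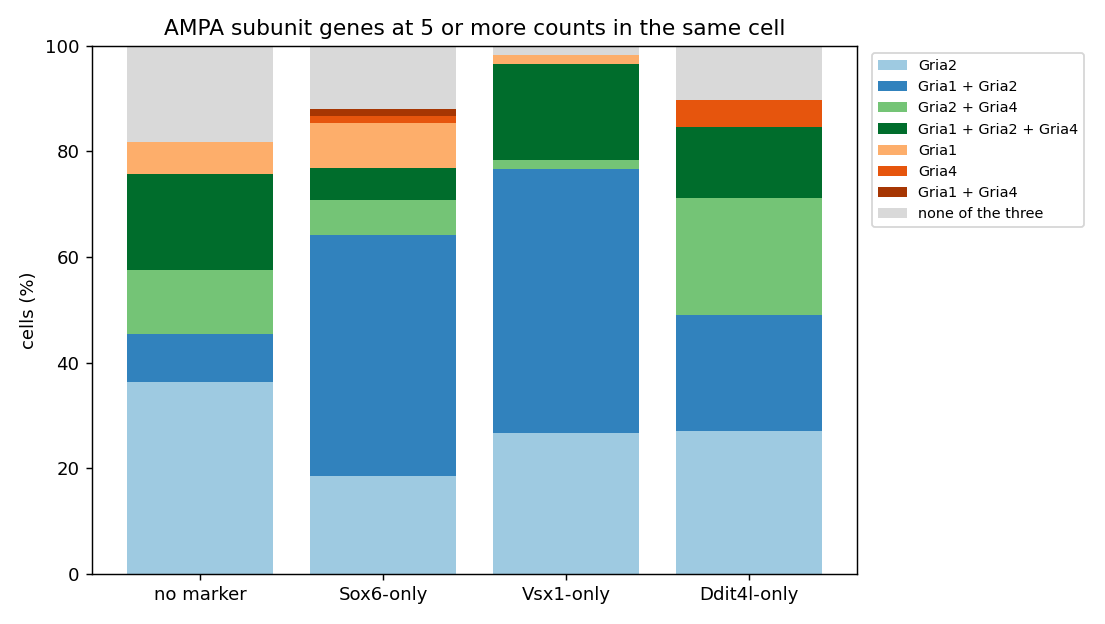
Bars give the percentage of cells of each group by the set of Gria1, Gria2 and Gria4 found at 5 or more expected counts, with cells with no marker left of the marker groups. Gria1 with Gria2 fills 45.7% of Sox6-only and 50% of Vsx1-only cells, and the set of Gria2 with Gria4 and without Gria1 fills 22% of Ddit4l-only cells.

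Grik1, a kainate receptor subunit gene known from OFF bipolar cells, was absent from most cells and high in a few. It was detected in 35 of 151 Sox6-only cells (23.2%, interval 16.7% to 30.7%), 12 of 60 Vsx1-only cells (20%, 10.8% to 32.3%) and 6 of 59 Ddit4l-only cells (10.2%, 3.82% to 20.8%). Mean levels over the retinas 1Ra, 1la, 2Ra and 2la were 153, 36.3, 34.1 and 26 TPM in Sox6-only cells, 1.69, 1.63, 34.3 and 61 TPM in Vsx1-only cells, and 27.3, 0, 0.055 and 0.0635 TPM in Ddit4l-only cells. Sox6-only cells exceeded Ddit4l-only cells in 4 of 4 retinas, but in 1Ra this order rested on 1 of the 30 Sox6-only cells, at 3994 TPM. The Ddit4l-only mean of 1Ra also included 1 cell of 259 TPM. The Vsx1-only means were higher in mouse 2 than in mouse 1. A single Vsx1-only cell of 2la held 61.1% of the Grik1 counts of its group, and without it the group mean was 8.03 TPM in place of 22 TPM. The log2 fold change of Sox6-only against Ddit4l-only cells was 3.42 (SE 2.77, edgeR adjusted p 0.83), that of Sox6-only against Vsx1-only cells 0.57 (SE 2.74, edgeR adjusted p 1) and that of Vsx1-only against Ddit4l-only cells 2.85 (SE 3.82, edgeR adjusted p 0.838), so the error was nearly as large as the fold or larger.

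One Sox6-only cell of 1Ra carried 3994 TPM of Grik1, or 5832 counts, which was 38.6% of the Grik1 counts of its group. Without it the group mean was 29.5 TPM in place of 55.8 TPM. This cell stood apart in other ways, with 8 of 14 bipolar markers at 1 TPM or more, Grm6 at 0, Sox6 at 34.4 TPM and 0 of the 6 OFF bipolar markers other than Grik1, Neto1 and Vsx1. Most other Grik1 cells did hold Grm6. At 5 or more counts of both, Grm6 was found in 28 of the 29 Grik1 cells of the Sox6-only group, in 6 of 7 of the Vsx1-only group and in 0 of 3 of the Ddit4l-only group. In all cells of these groups the share with Grm6 was 98.7%, 98.3% and 28.8%.

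Neto1, on chromosome 18 (gene at chr18:86394952-86506718 in GENCODE on GRCm38), was rarer still. Its exons overlap an antisense gene in that annotation, and reads of both cannot be told apart without strand. It was detected in 16 of 151 Sox6-only cells (10.6%, interval 6.18% to 16.6%), 6 of 60 Vsx1-only cells (10%, 3.76% to 20.5%) and 3 of 59 Ddit4l-only cells (5.08%, 1.06% to 14.1%). Over the retinas 1Ra, 1la, 2Ra and 2la its mean was 1.87, 3.32, 0.311 and 2.13 TPM in Sox6-only cells, 0.0917, 0.0156, 14.3 and 12 TPM in Vsx1-only cells, and 0, 0, 9.02 and 0 TPM in Ddit4l-only cells. The Sox6-only group was higher in both retinas of mouse 1 and the Vsx1-only group in both retinas of mouse 2. One cell held 99.1% of the Neto1 counts of the Ddit4l-only group, and since 3 of its 4 retinas were at 0 no fold is given. Neto1 was not called by edgeR in any comparison (adjusted p 0.772 for Sox6-only against Ddit4l-only cells).

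Grik1 and Neto1 were then read in the same cells, at 5 or more counts of each. In the Sox6-only group 2 cells held both, of 29 with Grik1 and 10 with Neto1, whereas all 3 Vsx1-only cells with Neto1 were among the 7 with Grik1. In the Ddit4l-only group 0 cells held both, of 3 with Grik1 and 1 with Neto1. Across cells, Pearson r of log2(TPM + 1) was 0.82 in 33 cells with no marker, -0.03 in 151 Sox6-only, 0.85 in 60 Vsx1-only and -0.04 in 59 Ddit4l-only cells. The high values rest on these few cells, and cells of 1 retina share its wells. In 1 Vsx1-only cell of 2la, Gria2 stood at 1121 TPM, Grik1 at 848 TPM and Neto1 at 168 TPM, with Vsx1 at 39.5 TPM, Grm6 at 4.56 TPM and 4 of the other 6 OFF bipolar markers at 1 TPM or more. Another, of 2Ra, held 167 TPM of Neto1 and 227 TPM of Vsx1, with Grm6 at 0 and 3 of the 6. A cell of 2Ra with no marker held 222 TPM of Neto1, with Grm6 at 2.83 TPM and 3 of the 6. The sum of those other 6 OFF markers had a median of 598 TPM in the 3 Vsx1-only cells with Neto1 and 0.02 TPM in the remaining Vsx1-only cells. Rod bipolar markers, a list of 6, summed to 4236 TPM in the Vsx1-only cell of 2la and 2334 TPM in that of 2Ra. They summed to 629 TPM in the cell with no marker. The group medians of this sum were 2.07 TPM in Vsx1-only cells and 19.7 TPM in cells with no marker. The part of other cell types in these levels was not tested.

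Grik5, a subunit gene whose protein needs GRIK1, GRIK2 or GRIK3 to form a channel, was even over the retinas in Sox6-only cells, with means of 3.71, 4.39, 3.64 and 3.57 TPM in 1Ra, 1la, 2Ra and 2la. In Vsx1-only cells these were 1.00, 10.4, 3.79 and 5.97 TPM, and in Ddit4l-only cells 0.0226, 1.06, 0.536 and 2.92 TPM. Ddit4l-only cells were the lowest in all 4 retinas. Between Vsx1-only and Ddit4l-only cells an order in 4 of 4 retinas was also found for Gria2, Grik4 and Neto1, and the reverse for Grik3. Such an order is thus not particular to Grik5. The log2 fold change of Grik5 was 1.70 (SE 1.00, edgeR adjusted p 0.749) for Sox6-only and 2.29 (SE 1.02, edgeR adjusted p 0.459) for Vsx1-only against Ddit4l-only cells. It was detected in 32.5% of Sox6-only cells (interval 25.1% to 40.5%), 41.7% of Vsx1-only cells (29.1% to 55.1%) and 22% of Ddit4l-only cells (12.3% to 34.7%). Grik4, the other gene of this kind, averaged 0.237 TPM in Sox6-only, 1.32 TPM in Vsx1-only and 0.192 TPM in Ddit4l-only cells, the middle value resting on 1 cell of 1la with 52.9 TPM. That cell also held 67.2 TPM of Grik5.

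Grik2 and Grik3 were at trace level in the marker groups. Grik2 averaged 1.21 TPM in Sox6-only, 0.923 TPM in Vsx1-only and 1.18 TPM in Ddit4l-only cells, with at least 1 count in 55.6%, 48.3% and 54.2% of them, a share that thinning reduced to 21.9%, 23.3% and 20.3%. Its log2 fold changes between these groups lay from -0.22 to 0.32, with an SE of 0.96 to 0.97. Grik3 averaged 0.206 TPM in Sox6-only, 0.104 TPM in Vsx1-only and 0.308 TPM in Ddit4l-only cells. With thinned counts it was found in 9.27%, 8.33% and 20.3% of them. Of the cells at 5 or more counts, 41 Sox6-only cells held a gene of the Grik1 to Grik3 kind and 38 one of the Grik4 to Grik5 kind, and 11 held both. In Vsx1-only cells these numbers were 11, 23 and 8, and in Ddit4l-only cells 11, 11 and 4.

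**Figure D4:**
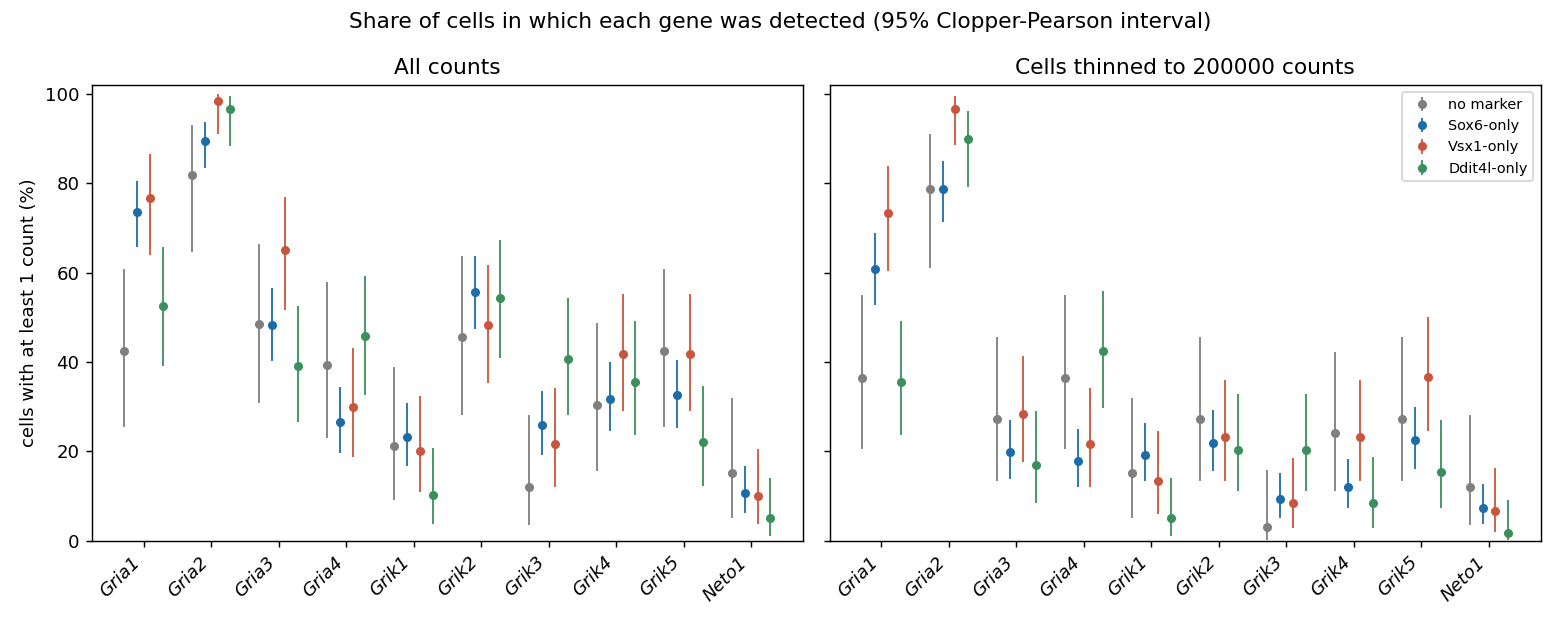
Points give the percentage of cells with at least 1 expected count of each gene, with 95% Clopper-Pearson intervals, on the left with all counts and on the right with every cell thinned to 200000 counts. Gria2 is at 78.8% or more in every group in both panels, and the traces of Gria3, Grik2 and Grik3 seen with all counts fall to 28.3% or less when thinned.

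The 3 marker groups were compared over all genes to set these differences against the background. Of the 10 genes, 0 were called between Sox6-only and Ddit4l-only cells (0% of the 16646 genes tested were called) and 0 between Sox6-only and Vsx1-only cells (0%). Between Vsx1-only and Ddit4l-only cells 0 of the 10 were called, against 0.0421% of all genes, that is 7. At an unadjusted edgeR p under 0.05 the counts of the 10 were 0, 1 and 1, against 7.97%, 8.42% and 12.6% of all genes, and the gene was Gria2 both times. DESeq2 called 1 in each, namely Neto1, Gria2 and Gria2, where it called 4.92%, 5.45% and 10.4% of all genes. With limma on mean log2(TPM + 1), 7 of the 10 were tested and 0, 1 (Gria2) and 0 were called, against 1.12%, 2.53% and 4.8% of all genes. Sums per retina called 0 in each, against 0.558%, 0.82% and 2.45%. The median log2 fold changes of the 10 genes in the main test were 0.39, 0.12 and 0.76, against 0.08, 0.05 and 0.01 over all genes tested. In both comparisons with Sox6-only cells edgeR called 0 of all genes, so also none of the markers that define the groups. This was so although median Sox6 was 196 TPM in Sox6-only and 0 TPM in Vsx1-only and Ddit4l-only cells. A count of 0 of the 10 in both therefore says nothing about the 10 genes. Read against the other shares, 0 or 1 gene of 10 is close to the background.

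**Figure D5:**
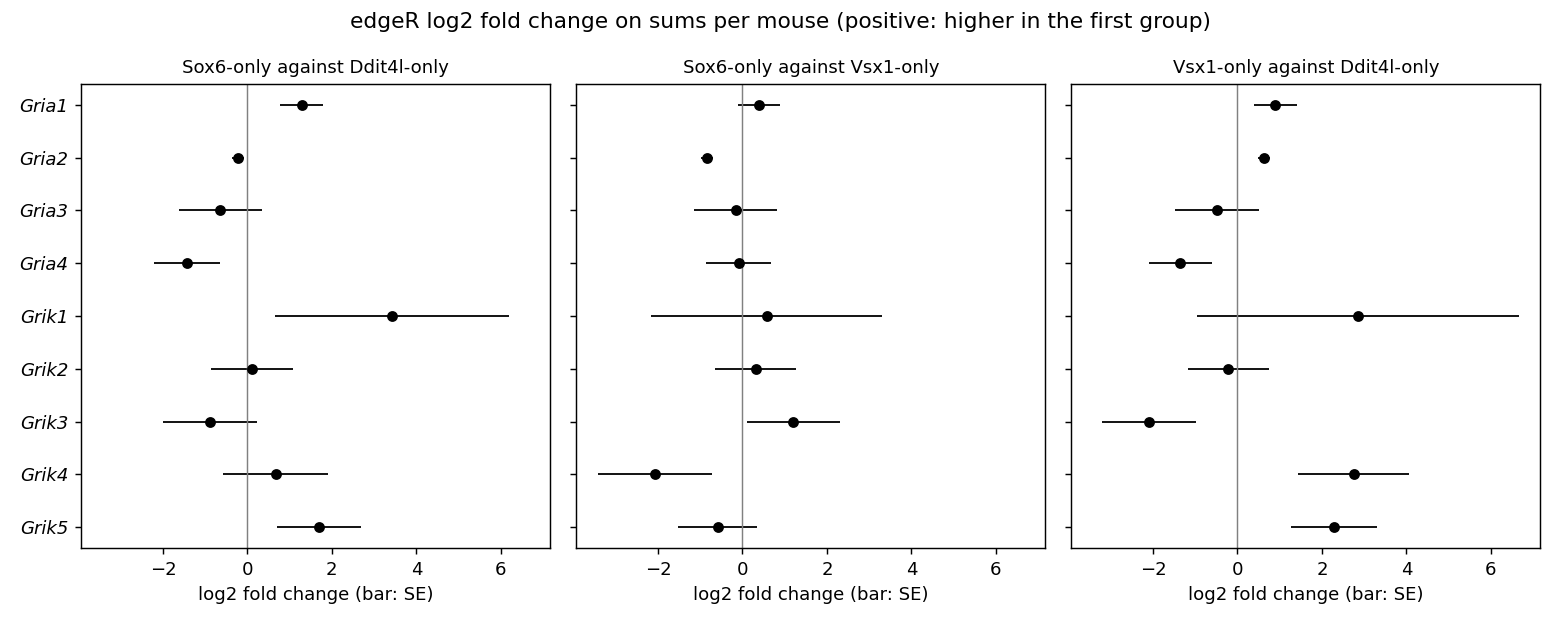
Points are edgeR log2 fold changes on counts summed per mouse with their SE, positive where the group named first was higher, for 9 of the 10 genes. Gria2 has the shortest error bars, with -0.84 for Sox6-only against Vsx1-only and 0.62 for Vsx1-only against Ddit4l-only cells, and Grik1 the longest. Neto1 is left out because its sum was at 0 in Ddit4l-only cells of mouse 1.

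Cells with none of the 3 markers were set against the mean of the marker groups. Their bipolar list sum ranged from 8.97 to 16708 TPM and Grm6 was at 5 or more counts in 23 of the 33, so they are not 1 kind of cell. Grik2 was the gene that stood out. In cells with no marker it averaged 0.844 TPM in 1Ra, 17.9 TPM in 1la, 23.3 TPM in 2Ra and 1.88 TPM in 2la, while in the marker groups the 12 means per retina lay between 0.528 and 2.06 TPM. The log2 fold change was 3.83 (SE 0.66, edgeR adjusted p 0.248, unadjusted 0.00141), at 3.76 in mouse 1 and 3.81 in mouse 2. The level was held by few cells. The 3 highest had 199 TPM (2Ra), 143 TPM (1la) and 33 TPM (2Ra). In the first and the last, 5 and 4 of 14 bipolar markers were at 1 TPM or more and the amacrine list summed to 1893 and 1783 TPM, while the cell of 1la had 12 of 14 bipolar markers and 25.5 TPM of amacrine markers. The rod bipolar list summed to 3076 TPM in the cell of 1la, and to 200 and 152 TPM in the first and the last. Its median in cells with no marker was 19.7 TPM. The part of other cell types in the Grik2 level was not tested. Without the 10 cells that held the highest count of each gene, a choice made after the data were seen, the log2 fold change was 2.75 (edgeR adjusted p 0.4).

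Gria1 in cells with no marker averaged 18.8, 24.4, 13.5 and 0.0475 TPM in 1Ra, 1la, 2Ra and 2la, below the Sox6-only and Vsx1-only means of the same retinas each time. The log2 fold change against the marker groups was -1.40 (SE 0.57, edgeR adjusted p 0.465). Gria2 averaged 32, 66.1, 108 and 114 TPM, with a log2 fold change of -0.05 (SE 0.21, edgeR adjusted p 0.984), and its detection share was 81.8% (interval 64.5% to 93%). Gria4 was at 27.7, 25.1, 12.1 and 10.6 TPM, with a log2 fold change of 0.82 (SE 0.58, edgeR adjusted p 0.683). One cell of 2la with 27.1 TPM of Gria3 and 38.5 TPM of Grik4 had a horizontal cell list sum of 11851 TPM and 5 of its 5 markers, against a median of 204 TPM for the cells with no marker. By edgeR 0 of the 10 genes were called (0% of 17238 genes tested were called), 1 (Grik2) had an unadjusted p under 0.05, against 10.9% of all genes, and DESeq2 called 1 (Grik2), against 7.61%. Sums per retina called 0 (0% of all genes) and limma 0 of the 7 it tested, against 0.0985%.

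Genes of proteins that traffic, anchor or edit these receptors were taken as a list of 47, of which 44 were tested between marker groups. By edgeR 0 were called in any comparison, with 4, 6 and 9 at an unadjusted p under 0.05 for Sox6-only against Ddit4l-only, Sox6-only against Vsx1-only and Vsx1-only against Ddit4l-only cells. Over all genes the shares at that p were 7.97%, 8.42% and 12.6%. The median log2 fold changes of the list were 0.16, 0.75 and -0.49, against 0.08, 0.05 and 0.01 over all genes tested. DESeq2 called 3 (1 higher, 2 lower), 7 (3 higher, 4 lower) and 9 (3 higher, 6 lower) of the 44, where it called 4.92%, 5.45% and 10.4% of all genes. The most abundant was Nsf, which encodes a fusion ATPase that binds GRIA2, at a mean of 363 TPM in Sox6-only, 739 TPM in Vsx1-only and 341 TPM in Ddit4l-only cells. Its log2 fold change was -1.09 (SE 0.14, edgeR adjusted p 0.241) for Sox6-only against Vsx1-only and 1.32 (SE 0.15, edgeR adjusted p 0.122) for Vsx1-only against Ddit4l-only cells, and both passed with sums per retina, which count 4 retinas of 2 mice (edgeR adjusted p 0.0178 and 0.005).

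Abhd6 and Porcn, the next by mean TPM over the 3 marker groups though not within each group, encode proteins that bind AMPA receptor subunits or complexes. Abhd6 averaged 140 TPM in Sox6-only, 27 TPM in Vsx1-only and 105 TPM in Ddit4l-only cells, with a log2 fold change of 2.23 (SE 0.54, edgeR adjusted p 0.457) for Sox6-only against Vsx1-only cells, which DESeq2 and limma called. Porcn averaged 87.9 TPM in Sox6-only, 67.3 TPM in Vsx1-only and 61.9 TPM in Ddit4l-only cells, with a log2 fold change of 0.57 (SE 0.30, edgeR adjusted p 0.72) for Sox6-only against Ddit4l-only cells. Adarb1, the editing enzyme gene of the Q/R site, named here for the sequences above, averaged 16.1 TPM in Sox6-only, 7.41 TPM in Vsx1-only and 12.3 TPM in Ddit4l-only cells.

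The genes whose levels were most like those of Gria2, Gria1 and Grik1, the 3 members of highest level, were found by the Pearson correlation of log2(CPM + 1) over 12 sums (3 marker groups in 4 retinas) among 3825 genes. These were Map6 (0.89), Poldip3 (0.86) and Vamp2 (0.84) for Gria2, Ipo13 (0.87), Sipa1l3 (0.87) and Sh3gl1 (0.86) for Gria1, and Napg (0.88), Abcd2 (0.83) and Mia3 (0.80) for Grik1. The sums share their libraries, and the values describe likeness over these 12 points.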

How the data were processed

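Single cells were profiled by Smart-seq2. The tools and the build, per the submitters' processing notes, were TopHat2 2.0.10 and RSEM 1.2.28 with mm10, and the annotation is not given in the sources used here. One deposited table holds the authors' RSEM expected counts without normalisation, and these were rounded to whole numbers here. A further table deposited by the authors holds TPM, which correct for transcript length and scale each cell to a fixed total. Counting by strand is not stated, so a gene and an antisense gene that overlaps it cannot be told apart. One cell of 1la without values was not analysed here.

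Cells with at least 3000 genes at an expected count of 1 or more were kept (total counts 203657 to 1945582, median 1065569), and 62 wells were left out. Rounded counts were summed per mouse and marker group and tested with edgeR 4.0.16 (glmQLFit, TMM, filterByExpr, mouse as a block because the groups come from the same animals; R 4.3.3), with Benjamini-Hochberg adjustment over all genes and a threshold of 0.05. The marker groups share samples between the 3 comparisons. Alternatives were DESeq2 1.42.0, limma 3.58.1 on mean log2(TPM + 1), plain library totals, no filter, sums per retina, no block, other marker and gene thresholds, thinning, and leaving out rod-rich cells, retinas or mice. CPM for the likeness were computed here from summed counts. The intervals given with cell-level percentages are exact binomial intervals, while the bound for a count of 0 is 3 divided by the number of cells.

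The 10 genes, the marker lists and the list of 47 were chosen with earlier results of these data known. All 10 genes were named in every comparison; of the 47, those called by the main test (none were) and the 3 of highest mean TPM. Likeness was taken for the 3 members of highest mean TPM, since fewer than 3 were called. Doublets were not called. The edgeR step was also run on simulated data. Its outcome is not given here, so that run is no measure of how many true changes the test finds. A missed threshold does not show that levels were equal.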

Additional observations from a re-analysis of the deposited data

Results flagged for a closer look

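In sets of 4 retinas, the value of 1 retina stood far from the other 3 in 8 of 40 sets of 1 gene and 1 cell group. The rule flags about 1 in 20 sets of normally distributed values. Here 1 cell can set the mean of a retina, so that rate does not apply and the flags are a description. Grik1 stood out at 153 TPM in Sox6-only cells of 1Ra and at 27.3 TPM in Ddit4l-only cells of 1Ra. Neto1 stood out at 9.02 TPM in Ddit4l-only cells of 2Ra. Gria3 stood out at 7.25 TPM in Ddit4l-only cells of 2Ra and at 6.92 TPM in cells with no marker of 2la. Grik4 did so at 9.7 TPM in cells with no marker of 2la and at 3.89 TPM in Vsx1-only cells of 1la, and Grik3 at 0.473 TPM in Sox6-only cells of 2la. Single cells carried most of these values, among them the Sox6-only cell with 3994 TPM of Grik1, the Ddit4l-only cell with 66.6 TPM of Gria3 and the Sox6-only cell with 18.8 TPM of Grik3.

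Among the 62 wells with under 3000 genes, which no comparison used, Gria2 was detected in 22 and Gria1 in 8, with a median total of 8838 counts.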

How the results depend on the processing

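The number of the 10 genes called stayed at 0 in all 4 comparisons under every alternative except DESeq2, which called 1 in each comparison (Neto1, Gria2, Gria2 and Grik2), and limma, which called 1 between Sox6-only and Vsx1-only cells (Gria2, log2 fold change -1.79, adjusted p 0.0485). DESeq2 gave log2 fold changes of -0.89 (adjusted p 0.00102) and 0.62 (0.034) for Gria2 and 3.87 (6.05e-09) for Grik2. Its call of Neto1 (adjusted p 0.0399) rests on a sum of 0 in Ddit4l-only cells of mouse 1, and in mouse 2 the Sox6-only mean of 1.26 TPM was below the Ddit4l-only mean of 3.01 TPM. The cause was not tested. Leaving out each retina in turn gave 0 genes of the 10 in every comparison, and leaving out a mouse leaves no replicate and so no test. The fit with no replicate block, where mouse 1 and mouse 2 were not paired, also called 0 of the 10, and over all genes it called 2, 15, 49 and 1 in place of 0, 0, 7 and 0. The retina as a replicate block, with sums per retina, called 0 of the 10, with 81, 119, 356 and 0 genes in all. Thinned cells gave 5, 27, 56 and 9 genes in all, and the number of all genes called between Vsx1-only and Ddit4l-only cells was 0 without rod-rich cells and without 1Ra, 1la or 2Ra, and 11 without 2la, in place of 7. Of the 40 fitted log2 fold changes, 40 kept their sign with DESeq2, 38 with sums per retina, 36 without rod-rich cells and 36 without the 10 cells of highest count, an alternative chosen after the data were seen. With mouse 1 alone 35 kept it and with mouse 2 alone 32. Of 40 detection shares, 20 moved when cells were thinned. Depth limits Gria3, Grik2, Grik3 and Grik4, whose mean was at most 1.51 TPM in the marker groups, and each error comes from 2 mice.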

Other observations

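Grin1, which encodes the subunit that every NMDA receptor needs, was present in the marker groups, with a mean of 52.5 TPM in Sox6-only, 47.4 TPM in Vsx1-only and 71 TPM in Ddit4l-only cells. The genes of the partner subunits were low. Grin2b, the highest of the Grin2 genes in each group, had a mean of 1.31 TPM in Sox6-only, 1.61 TPM in Vsx1-only and 1.9 TPM in Ddit4l-only cells. Without the cell of highest count in each group these means were 0.193, 1.26 and 1.51 TPM. In the same order of groups, Grin3a averaged 0.47, 3.07 and 0.365 TPM and Grin3b 1.82, 0.176 and 0.46 TPM. Among genes of AMPA receptor auxiliary proteins, Cacng5 averaged 0.0523 TPM in Sox6-only, 12.8 TPM in Vsx1-only and 2.35 TPM in Ddit4l-only cells, and Gsg1l 20.4 TPM in Sox6-only, 2.83 TPM in Vsx1-only and 18.5 TPM in Ddit4l-only cells. These genes were chosen after their values were seen. Gsg1l was called by edgeR on sums per retina between Vsx1-only and Ddit4l-only cells (log2 fold change -2.89, SE 0.59, adjusted p 0.0461), which count 4 retinas of 2 mice, and not on sums per mouse (-2.80, SE 0.45, edgeR adjusted p 0.186).

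The 18 cells with more than 1 marker, of which 10 held Sox6 with Ddit4l, 6 Sox6 with Vsx1 and 2 Vsx1 with Ddit4l, were in no comparison. In these cells Gria1 averaged 86.5 TPM, Gria2 80.2 TPM, Grik1 47.7 TPM and Grik5 12.8 TPM, and Grik5 was detected in 13 of the 18.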
